A study of Mus musculus with 16 samples.

Results

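The comparison of anti-miR-135b with its control at 48 h used 6 of the 16 arrays of the series, chosen by their labels alone. All cells were TUBO, a mammary carcinoma line derived from BALB-neuT mice, whose tumours are driven by an activated rat ErbB2 (neu) transgene that every sample therefore carried. Cells were transfected with a cationic lipid and 200 nM of a hairpin inhibitor against miR-135b (anti-miR-135b, samples 13, 14 and 15) or of a negative control hairpin (control, samples 4, 5 and 6), and total RNA was hybridized to Illumina mouse bead arrays. Samples of both arms at 72 h (n = 3 each) and at 24 h (n = 2 each), made in the same way, entered the fit for the spread. One cell line was studied, and no label says whether the samples of an arm came from separate cultures, so p-values measure the spread between these samples, which may be technical.

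MicroRNAs are short RNAs that guide Argonaute proteins to messages carrying a match to the seed at the microRNA's 5′ end, and paired messages are usually translated less and degraded faster. A hairpin inhibitor binds the microRNA, and the levels of its direct targets can then go up. miR-135b and miR-135a form a family, whose members miR-135b-5p and miR-135a-5p share a seed and which has been studied in bone formation, Wnt signalling and carcinoma. The labels name miR-135b without saying which strand of its precursor the inhibitor pairs with. Mature sequences of miR-135b-3p and miR-135a-5p follow, to show what a seed is. Their seeds differ, so miR-135b-3p does not belong to the family that the shared 5p seed defines. The sequence of miR-135b-5p was not in the reference used here. Neither of the sequences shown is given by the labels as the strand the inhibitor pairs with. They are RefSeq entries on GRCm38.p6, written 5′ to 3′ with the seed (bases 2 to 8) in capitals.
mmu-miR-135b-3p, chr1:132198142-132198163, plus strand: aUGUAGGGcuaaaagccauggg
mmu-miR-135a-5p, chr9:106154140-106154162, plus strand, and also chr10:92072141-92072163, minus strand: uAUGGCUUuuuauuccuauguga
No probe for miR-135b or for Lemd1, the gene that hosts it, was analysed here, so the depth of the silencing was not measured.

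Values below are log2 intensities after background correction and quantile normalization, differences are anti-miR-135b minus control, and only the brighter probes, with a mean signal above 7.1, were tested, which left 12848. Of the epithelial markers with a probe, 9 of 10 were bright enough, among them Krt8, Krt18, Cdh1 and Cldn3. Krt19 was not, at the 1.3 percentile of signal. Of leukocyte markers 2 of 13 were bright enough, Cd14 at the 99.8 percentile of signal and Nkg7 at the 56.2 percentile. Of fibroblast and endothelial markers 4 of 16 were bright enough, and of adipocyte markers 2 of 9. Mean levels over each marker list overlapped between the arms: epithelial markers ran from 11.11 to 11.46 in anti-miR-135b arrays and from 11.00 to 11.58 in control arrays. Leukocyte markers ran from 7.4202 to 7.5021 in anti-miR-135b arrays and from 7.2553 to 7.4218 in control arrays, a narrow overlap. Fewer cells of a type and less RNA per cell cannot be told apart in such bulk samples.

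The 6 arrays did not group by arm. The pair most alike over the 12848 probes was anti-miR-135b sample 14 and control sample 5, with r = 0.985, and the pairs least alike were anti-miR-135b 13 with control 6 and anti-miR-135b 15 with control 4, both at 0.906. Sample 14 correlated with its own arm at 0.949 on average and with the control arm at 0.967. Deviations from the arm means were shared across arms too, at r = 0.56 between anti-miR-135b 13 and control 4 and 0.5 between anti-miR-135b 15 and control 6, but only 0.08 between 14 and 5. These correlations are over probes, which share arrays and are not independent. Deviations within an arm are bound to each other, at r = -0.71 between 13 and 15 and -0.84 between 4 and 6. The values for the pairs are therefore not separate findings. The SD of a probe over single arrays averaged 0.31 within the anti-miR-135b arm and 0.28 within the control arm. The difference between the arm means, a different measure, had an SD of 0.28 over all probes and a median SE of 0.23. Array brightness also differed, with upper quartiles of intensity of 375.8, 465.6 and 420.3 under anti-miR-135b and of 529.4, 455.7 and 484.7 in the control. The part of brightness in the results was not tested. Whether the inhibitor acted in sample 14 could not be checked, and it is kept under its label, with results given also without it. Both arms lay on 1 chip, with the control in positions A to C and anti-miR-135b in D to F, hence the arm and the place on the chip cannot be told apart.

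**Figure D1:**
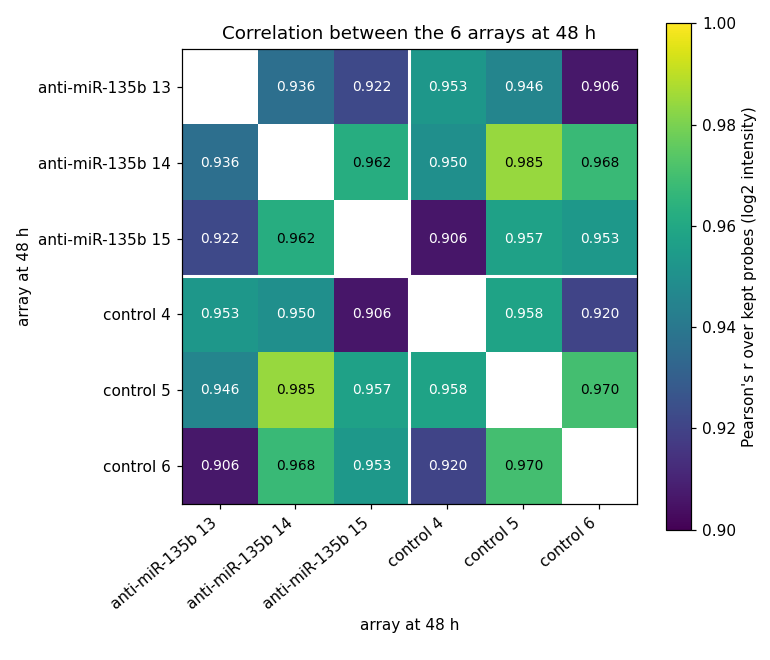
Pearson's r between each pair of the 6 arrays at 48 h, over 12848 probes of normalized log2 intensity. White lines separate the anti-miR-135b arrays from the control arrays. The brightest square joins anti-miR-135b 14 and control 5 (0.985), which belong to different arms.

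At 48 h no gene passed the test, and the genes with the smallest p-values are described here. The transcriptional repressor gene Zbtb7a measured lower by 1.81 on the log2 scale under anti-miR-135b, 1 of 5 probes of the Golgi matrix gene Golga2 by 1.28, the heterochromatin protein gene Cbx3 by 1.22 and the GATA-type repressor gene Trps1 by 1.04. With no background correction Golga2 was at -0.75 and Cbx3 at -0.64, and in the authors' deposited table at -0.74 and -0.70. Higher values were found for 1 probe of the chaperone gene Hspa8 (2.21), for the signal recognition particle gene Srp54a (1.13), for the actin-binding profilin gene Pfn1 (1.11) and for the nucleolar gene Mak16 (1.03). By limma, 0 of 12848 probes had an adjusted p under 0.05 (0% called), the smallest being 0.69. At an unadjusted p under 0.05 there were 802 (6.24%), of which 393 were higher (3.06%) and 409 lower (3.18%). Directions rest on quantile normalization: with each array scaled to its median instead, the median of all probes lay at -0.27, and 103 probes were higher and 2516 lower at that threshold. The arms did not overlap for 601 probes that were higher (4.68%) and 707 that were lower (5.5%), and differences of 2-fold or more numbered 16 higher (0.125%) and 12 lower (0.0934%). With 3 arrays against 3, an exact permutation test of a single gene cannot go below 0.1.

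Zbtb7a had the smallest p of all named genes. It measured 7.67, 9.45 and 7.53 in anti-miR-135b samples 13, 14 and 15 and 10.21, 9.88 and 9.98 in control samples 4, 5 and 6, a difference of -1.81 (SE 0.36, 3.5-fold, limma adjusted p = 0.69). The intensities behind these levels were 328.1, 980.5 and 341.9 under anti-miR-135b and 2195.4, 1275.3 and 1538.9 in the control. Samples 13 and 15 lay far below every control array, while sample 14 lay just below the lowest of them. Without sample 14 the difference was -2.41 (SE 0.23, limma adjusted p = 0.00022).

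Sample 14 stood nearest to the control mean in 14 of the 15 lower genes named here (93.3%), against 51.2% of all named probes that measured lower and 9 of the 15 higher genes. Without it, 4 probes passed, chosen here after their values were seen. Besides Zbtb7a they were Tax1bp1, Uchl5 and Acot2. Tax1bp1, an autophagy adaptor that binds ubiquitin, measured 10.91, 12.43 and 10.87 under anti-miR-135b and 12.65, 12.11 and 11.97 in the control, a difference of -0.84 with all arrays and of -1.35 (SE 0.22, limma adjusted p = 0.0465) without sample 14. Uchl5, a deubiquitinase of the proteasome, measured 9.00, 10.63 and 8.84 under anti-miR-135b and 10.53, 10.33 and 10.31 in the control by the probe that passed (-0.90 with all arrays, -1.47 without sample 14), and samples 13 and 15 alone lay below the control by a second probe as well (9.00, 10.54 and 8.85 under anti-miR-135b against 10.28, 10.31 and 10.35 in the control). The remaining Uchl5 probe did not share this, at 9.55, 10.33 and 10.07 under anti-miR-135b against 9.86, 9.78 and 9.64 in the control. Acot2, a mitochondrial thioesterase of fatty acyl-CoA, lay the other way, with 8.81, 7.62 and 8.66 under anti-miR-135b and 7.48, 7.34 and 7.39 in the control (0.96 with all arrays, 1.32 without sample 14), while its dimmer probe differed by -0.10 (SE 0.22). In these genes samples 13 and 15 differed from the control and sample 14 lay close to it or within its range.

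Among regulators of transcription and chromatin, Trps1, which is expressed in luminal mammary cells, measured 8.62, 9.23 and 8.94 under anti-miR-135b and 9.69, 10.09 and 10.11 in the control (-1.04, SE 0.24). Cbx3, which encodes heterochromatin protein 1 gamma, measured 6.15, 7.41 and 7.19 under anti-miR-135b and 8.21, 8.06 and 8.14 in the control (-1.22, SE 0.27), its mean under anti-miR-135b lying below 7.1. The arms did not overlap in either gene. The histone chaperone gene Rbbp7 measured higher by all 3 of its probes, by 0.95 (SE 0.25), 1.14 (SE 0.35) and 0.99 (SE 0.43). In the first of them it measured 9.68, 9.68 and 10.06 under anti-miR-135b and 9.03, 9.24 and 8.29 in the control, and without control sample 6, the lowest array by each of the 3 probes, the difference was 0.67, and that of the probe with overlapping arms was 0.37 beside 0.99. The list of heterochromatin and Polycomb genes as a whole lay level, with 15 of 26 genes higher, a median difference of 0.01 and 3 higher and 1 lower at an unadjusted p under 0.05, beside a median of -0.01 over all 8865 named genes. Of those genes 47.9% had a difference above 0, and 2.61% were higher and 3.27% lower at that threshold. These shares are the background for this list and every list below.

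In signalling and growth control, Rasa1, which stimulates the GTPase activity of Ras, measured 10.08, 10.80 and 10.22 under anti-miR-135b and 11.27, 11.48 and 11.32 in the control (-0.99, SE 0.27). Araf, a kinase downstream of Ras, measured 9.14, 8.53 and 8.52 under anti-miR-135b and 7.67, 7.98 and 7.56 in the control (0.99, SE 0.23), but its brighter probe differed by 0.27 (SE 0.26) with overlapping arms. Nf1, the other Ras GTPase-activating gene with a low p, differed by -0.76 (SE 0.27), or -0.43 without anti-miR-135b sample 15. The Ras, Raf and ERK list had 12 of 23 genes higher and 11 lower with a median of 0.09 (-0.09 once anti-miR-135b sample 13 was left out), and 0 higher and 2 lower at an unadjusted p under 0.05. Among ErbB and PI3 kinase genes 9 of 18 were higher, with a median of 0.00, Pik3r1, a regulatory subunit of PI3 kinase, at -0.70 (SE 0.24) and Mtor at 0.50 (SE 0.20, and 0.32 without control sample 6). The growth inhibitor gene Tbrg1 differed by 0.77 (SE 0.21) and by 0.38 (SE 0.20) at its dimmer probe, and the complement regulator gene Cr1l by 0.73 (SE 0.20) and 0.27 (SE 0.23).

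Several genes of RNA handling were among those with low p-values, in both directions. Rbm39, a splicing factor, measured 7.45, 7.78 and 7.44 under anti-miR-135b and 8.12, 8.48 and 8.49 in the control (-0.81, SE 0.22). Rbm8a of the exon junction complex differed by -0.76 (SE 0.21) and the poly(A) polymerase gene Papola by -0.91 (SE 0.25), or -0.29 (SE 0.25) at its dimmer probe. Hnrnpa2b1, an RNA-binding protein of pre-mRNA, measured 10.49, 10.54 and 10.83 under anti-miR-135b and 9.93, 10.19 and 7.94 in the control (1.27, SE 0.46), control sample 6 lying far below the others (0.56 without it), and its dimmer probe differed by -0.39 (SE 0.27). Hnrnpf differed by 0.89 (SE 0.28), also with control sample 6 lowest (8.14), and by 0.53 without it. The list of SR and hnRNP splicing factors had 13 of 25 genes higher, a median of 0.02, and 4 higher and 2 lower at an unadjusted p under 0.05. Polr2e, a subunit shared by the nuclear RNA polymerases, measured higher by 0.78 (SE 0.20) and by 0.41 (SE 0.20) at its dimmer probe.

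Hspa8, the constitutive cytosolic Hsp70, measured 12.20, 11.93 and 13.17 under anti-miR-135b and 10.90, 11.45 and 8.33 in the control by ILMN_2918479 (2.21, SE 0.53, limma adjusted p = 0.735). Control sample 6 lay far below the other control arrays, and without it the difference was 1.26 (SE 0.33). The brighter Hspa8 probe, ILMN_1260103, measured 15.17, 15.31 and 15.73 under anti-miR-135b and 14.79, 15.28 and 15.47 in the control (0.22, SE 0.21), with overlapping arms. Pfn1 measured 11.64, 11.25 and 11.86 under anti-miR-135b and 10.52, 11.04 and 9.86 in the control (1.11, SE 0.28), and its brighter probe differed by 0.08 (SE 0.30). Srp54a, which binds signal peptides as they leave the ribosome, measured 9.44, 9.40 and 9.70 under anti-miR-135b and 8.86, 8.74 and 7.54 in the control, and its difference of 1.13 (SE 0.27) was 0.70 without control sample 6. Mak16, needed for the large ribosomal subunit in yeast, measured 9.65, 9.60 and 9.70 under anti-miR-135b and 8.60, 9.09 and 8.18 in the control (1.03, SE 0.24), and 0.22 (SE 0.21) by its dimmer probe. Control sample 6 was the lowest control array in 10 of the 15 higher genes (66.7%), against 36.6% of all named probes that measured higher.

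Alg5, which makes the glucose donor of N-glycosylation, had tight control values, with 11.69, 11.17 and 11.10 under anti-miR-135b and 10.43, 10.29 and 10.40 in the control (0.95, SE 0.26). Its other probes differed by 0.45 (SE 0.28) and 0.08 (SE 0.20), with overlapping arms. The list of the signal recognition particle and translocon had 9 of 21 genes higher and a median of -0.10, with Srp54a as its only gene at an unadjusted p under 0.05. Among ER folding genes 9 of 20 were higher (median -0.06), with Hsp90b1, the chaperone GRP94, at -0.83 (SE 0.29), Sel1l of ER degradation at -0.72 (SE 0.34, and -0.42 without anti-miR-135b sample 15) and 2 lower genes at that threshold. Heat shock proteins had 10 of 16 genes higher and a median of 0.17 (-0.19 with median scaling and 0.0026 without control sample 4), with Hspa4 at 0.49 (SE 0.20, -0.03 with median scaling and 0.31 without control sample 4) and Hsp90aa1 at -0.56 (SE 0.26, and -0.89 without anti-miR-135b sample 14). Ribosome biogenesis genes had 17 of 25 higher and a median of 0.11 (-0.31 with median scaling and -0.07 without anti-miR-135b sample 15), yet the box C/D snoRNP gene Nop58 was at -1.15 (SE 0.42, and -0.55 without anti-miR-135b sample 13) and Imp3 at -0.49 (SE 0.18). The arms overlapped in the mean level of each of these lists.

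Kif11, the kinesin that separates spindle poles, differed by -0.84 (SE 0.22), and the microtubule polymerase gene Ckap5 by -0.70 (SE 0.20). Rad17, which loads the checkpoint clamp at damaged DNA, measured 7.78, 8.32 and 7.86 under anti-miR-135b and 9.01, 8.78 and 8.89 in the control (-0.91, SE 0.22), and its dimmer probe differed by -0.23 (SE 0.18). Rad1 and Hus1, which encode parts of that clamp, differed by -0.47 (SE 0.20) and -0.42 (SE 0.24), and Hus1 by -0.09 without anti-miR-135b sample 13. Over the DNA damage and repair list 14 of 23 genes were lower, the median was -0.06, and 0 higher and 2 lower genes had an unadjusted p under 0.05. The mean level of this list was 8.70, 8.81 and 8.78 under anti-miR-135b and 9.01, 8.86 and 8.84 in the control, without overlap. Among single probes, 10.2% had arms without overlap in either direction, and most of the lists counted did overlap. At 72 h the DNA damage and repair list lay the other way, with 18 of 23 genes higher. Its median there was 0.19, beside -0.01 over all named genes. In the list of G2 and M phase genes 16 of 23 were lower and the median was -0.16, ranging from -0.28 without control sample 6 to -0.03 without anti-miR-135b sample 15. The list's mean level followed sample as much as arm, with 10.10, 10.11 and 9.68 under anti-miR-135b and 10.17, 10.25 and 9.92 in the control. S phase genes had 17 of 27 higher and a median of 0.03.

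Mpp5 and Lin7c encode scaffold proteins that bind each other at epithelial junctions. Mpp5 measured 6.84, 7.34 and 6.56 under anti-miR-135b and 8.78, 8.00 and 8.17 in the control (-1.40, SE 0.36), its mean under anti-miR-135b lying below 7.1. Lin7c measured 7.84, 8.51 and 7.52 under anti-miR-135b and 8.92, 8.92 and 8.64 in the control (-0.87, SE 0.22). No anti-miR-135b array of either gene reached the lowest control array. With no background correction Mpp5 differed by -0.78 and Lin7c by -0.58, and in the authors' deposited table by -0.84 and -0.56. Lower too were Gkap1, an anchor of cGMP-dependent kinase (-0.92, SE 0.25, and -0.11 at its dimmer probe), and Tm9sf2, a protein of endosomes and the Golgi (-0.67, SE 0.19). For Tm9sf2 a second probe lay the same way (-0.44, SE 0.26) and ILMN_2509037 the other way (0.41, SE 0.23). Of the 5 Golga2 probes, ILMN_1231420 gave the difference of -1.28 (SE 0.27), and the others ran from -0.16 to 0.41 with overlapping arms, so the low value belongs to 1 probe and not to the gene as a whole. The list of Golgi structure and vesicle transport had 19 of 28 genes higher and a median of 0.13 (-0.37 with median scaling), with 0 genes at an unadjusted p under 0.05.

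**Figure D2:**
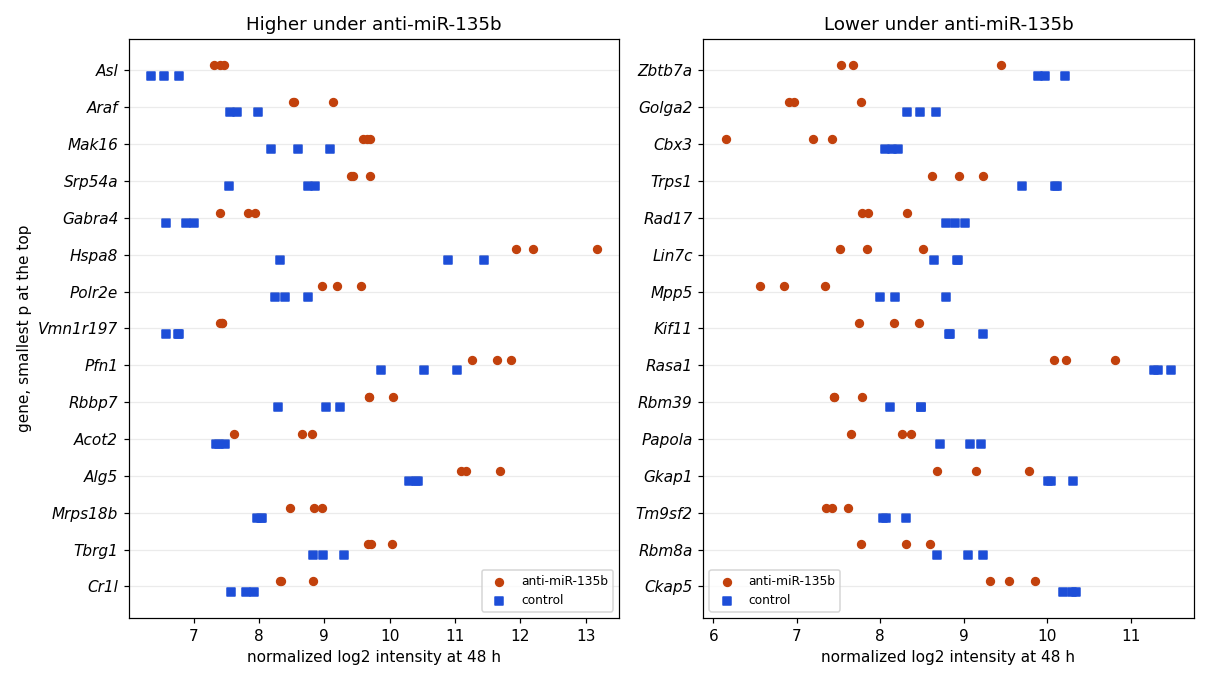
Normalized log2 intensity at 48 h of the 15 genes per direction with the smallest p among probes whose arms do not overlap. Orange points are the 3 anti-miR-135b arrays and blue squares the 3 control arrays. In Zbtb7a 1 orange point, sample 14 at 9.45, lies apart from the others (7.67 and 7.53), and in Hspa8 1 blue square, control 6 at 8.33, lies apart from 10.90 and 11.45.

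Metabolic and surface genes of the higher set included Asl, an enzyme of arginine synthesis (0.83, SE 0.19, and 0.37 by a second probe with SE 0.22 and overlapping arms), the mitochondrial ribosomal gene Mrps18b (0.75, SE 0.21, and 0.26 at its brighter probe) and Gabra4, a subunit of the GABA-A receptor (0.90, SE 0.22). Vmn1r197, a vomeronasal receptor gene, gave 7.44, 7.44 and 7.40 under anti-miR-135b and 6.76, 6.57 and 6.77 in the control (0.72, SE 0.18). The control means of Asl, Gabra4 and Vmn1r197 lay below 7.1, and their signals stood at the 54.7, 58 and 54.2 percentiles. A level above background was therefore not shown for them. With no background correction they differed by 0.37, 0.45 and 0.33, and in the authors' deposited table by 0.37, 0.42 and 0.33. Respiratory chain genes had 26 of 60 higher, a median of -0.04, and 2 higher and 4 lower at an unadjusted p under 0.05, with Ndufb2 of complex I at -0.63 (SE 0.19) and Cox6a1 of cytochrome c oxidase at 0.68 (SE 0.25, and 0.37 without anti-miR-135b sample 13).

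The miR-135b targets named by the study showed small differences at 48 h. Mid1, a microtubule-associated ubiquitin ligase, measured 7.11, 7.47 and 7.51 under anti-miR-135b and 7.08, 6.97 and 6.72 in the control (0.44, SE 0.25), close to the threshold of 7.1 on signal. The brightest Mtch2 probe, for a protein of the outer mitochondrial membrane, measured 10.39, 10.74 and 11.09 under anti-miR-135b and 9.73, 10.44 and 10.35 in the control (0.57, SE 0.25, -0.0017 with median scaling and 0.35 without control sample 4). Its arms overlapped, and the other Mtch2 probes differed by 0.22 (SE 0.31) and -0.35 (SE 0.26). The Mid1 difference was 0.21 with no background correction and 0.23 in the authors' deposited table. Of miR-135 targets described in other studies, 12 of 23 with a probe were bright enough, and 9 of these were lower, with a median of -0.29 and 0 genes at an unadjusted p under 0.05. Their mean level was 8.05, 8.29 and 8.13 under anti-miR-135b and 8.44, 8.33 and 8.33 in the control, so that every anti-miR-135b array lay below every control array. Of the 36 lists, the only others without overlap were DNA damage and repair and the pair of Mid1 and Mtch2. Among single probes, 10.2% had arms without overlap in either direction. Leaving out 1 array at a time gave medians for these published targets from -0.28 to -0.12. Their median was -0.15 with no background correction and -0.14 in the authors' deposited table. The members with the smallest p were Bmpr2, a BMP receptor (-0.31, SE 0.17), the homeobox gene Msx2 (-0.30, SE 0.18), the ubiquitin ligase gene Btrc (-0.40, SE 0.25, and -0.09 without anti-miR-135b sample 15) and Siah1a (-0.35, SE 0.23). Small RNA machinery, through which microRNAs act, had 7 of 17 genes higher and a median of -0.02, with the RNA helicase genes Ddx5 at 0.87 (SE 0.35, and 0.52 without control sample 6) and Ddx6 at -0.66 (SE 0.31).

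Interferon-induced genes, which cells switch on when they sense foreign RNA, had 25 of 29 members higher, beside 47.9% of all named genes. Their median was 0.29, with large spread within the arms. Their mean level was 7.74, 8.40 and 8.94 under anti-miR-135b and 7.84, 7.99 and 8.35 in the control, or 8.36 ± 0.60 and 8.06 ± 0.26 (SD, n = 3 each). Oas1g, an RNA-sensing synthetase, showed this order at 7.33, 9.14 and 10.19 under anti-miR-135b and 7.45, 8.03 and 8.90 in the control (0.76, SE 0.53), and differed by 0.11 without anti-miR-135b sample 15. Without anti-miR-135b sample 15 the list's median was 0.02, and without sample 13 it was 0.50. Ddx58, the RNA sensor RIG-I, was the member at an unadjusted p under 0.05, with 8.91, 8.92 and 8.98 under anti-miR-135b and 8.42, 8.33 and 7.67 in the control (0.80, SE 0.24). MHC class I genes had 13 of 16 higher with a median of 0.17 (-0.04 with median scaling and 0.06 without control sample 4), and their mean level was 8.85, 9.07 and 9.24 under anti-miR-135b and 8.82, 8.86 and 8.99 in the control.

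Autophagy genes were mostly below 0, with 19 of 25 lower and a median of -0.14 (-0.08 once anti-miR-135b sample 15 was left out), while 2 selective receptors lay the other way. Sqstm1, which encodes p62, measured 12.13, 11.69 and 12.45 under anti-miR-135b and 11.74, 11.08 and 10.25 in the control (1.07, SE 0.31, and 0.68 without control sample 6), and its arms overlapped. Nbr1 measured 7.98, 7.85 and 8.08 under anti-miR-135b and 7.45, 7.40 and 7.20 in the control (0.62, SE 0.18), without overlap. The lysosomal membrane gene Lamp2 differed by -0.62 (SE 0.25) and Gabarap, of the Atg8 family, by -0.52 (SE 0.24), or by -0.40 and -0.33 without control sample 4. Counts at an unadjusted p under 0.05 were 2 higher and 2 lower. Mammary luminal and basal genes had 11 of 16 lower and a median of -0.11, with Trps1 and the integrin gene Itga6 (-0.70, SE 0.29, and -0.43 without anti-miR-135b sample 15) at that threshold.

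**Figure D3:**
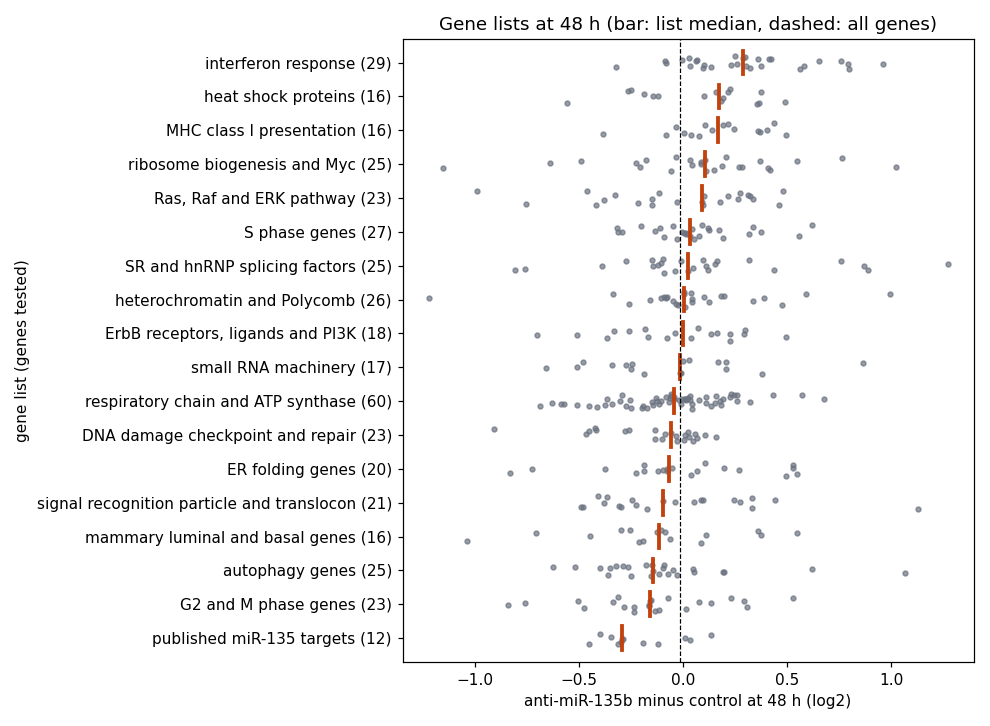
Difference between anti-miR-135b and control at 48 h (log2, horizontal axis) for the genes of 18 lists, with the number tested in brackets. Each dot is a gene, each bar a list's median and the dashed line the median over all named genes (-0.01). Medians ran from -0.29 for published miR-135 targets to 0.29 for the interferon response, and the dots of every list lie on both sides of 0.

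The same genes were then read at 72 h, where each arm had 3 arrays of its own on the other chip. Of the 15 lower genes, 13 were also lower at 72 h, against 52.3% of all named probes, and 6 of them kept the arms apart in that direction (7.06% of probes were lower without overlap at 72 h). Of the 15 higher genes 8 were also higher at 72 h, against 47.7% of all named probes, and 2 kept the arms apart (8% of probes), while 3 (Srp54a, Vmn1r197 and Cr1l) lay apart in the opposite direction (7.06%). At an unadjusted p under 0.05 for 72 h, 6 of the lower genes (background 2.64%) and 1 of the higher genes (background 4.49%) lay in the same direction. The genes were chosen for their 48 h values, and no probe passed at 72 h by limma (0% of 12848). Each probe had 1 estimate of spread for both times. Choice by a small p at 48 h thus also favoured a small SE at 72 h. The shares over all probes are therefore not a matched background for the counts by p or by overlap.

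Trps1 measured 8.84, 9.49 and 9.37 under anti-miR-135b and 9.82, 10.20 and 10.06 in the control at 72 h (-0.79, SE 0.24), beside -1.04 at 48 h. Rasa1 measured 10.18, 10.51 and 9.92 under anti-miR-135b and 10.83, 11.20 and 11.19 in the control at 72 h (-0.87, SE 0.27), and Rbm39 differed by -0.79 (SE 0.22). For Trps1, Rasa1 and Rbm39 the difference at 48 h minus that at 72 h was -0.24, -0.12 and -0.02. Gkap1 (-0.72, SE 0.25, and 0.35 at its dimmer probe) and Cbx3 (-0.74, SE 0.27) were also lower at 72 h without overlap. Zbtb7a lay lower at 72 h by only 0.36 (SE 0.36), with the arms apart. For Alg5 the probe named at 48 h was at 0.91 (SE 0.26) at 72 h, with 10.78, 10.63 and 10.96 under anti-miR-135b and 9.33, 9.95 and 10.34 in the control, but its other probes differed by -0.22 (SE 0.28) and -0.10 (SE 0.20) at 72 h with overlapping arms. On both chips the control took the positions before anti-miR-135b. Upper quartiles of intensity at 72 h were 406.2, 497.4 and 416.2 under anti-miR-135b and 391.8, 440 and 456.5 in the control. The part of brightness or of chip position in these differences was not tested.

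**Figure D4:**
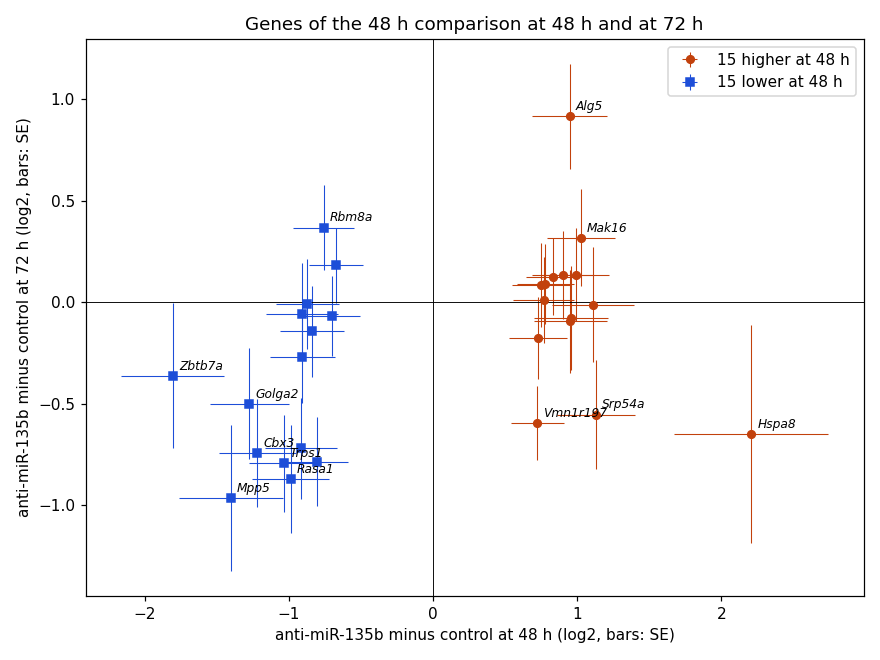
Difference between anti-miR-135b and control at 48 h (horizontal) and at 72 h (vertical), in log2 with SE bars, for the 15 higher (orange) and 15 lower (blue) genes of the 48 h comparison. Of the blue squares 13 lie below 0 at 72 h, and of the orange points 8 lie above it.

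A test of the difference at 48 h minus that at 72 h called 0 of 12848 probes by limma (0%, smallest adjusted p 0.85), and 706 had an unadjusted p under 0.05 (5.5%). Srp54a, higher by 1.13 at 48 h, differed by -0.55 (SE 0.27) at 72 h, and Hspa8 by -0.65 (SE 0.53) beside 2.21. Kpna2, an importin that carries proteins into the nucleus, measured 0.86 (SE 0.24) at 48 h and -0.49 (SE 0.24) at 72 h, and the lysosomal ceramidase gene Asah1 0.68 (SE 0.22) and -0.55 (SE 0.22), while its brighter probe gave -0.02 (SE 0.42) and 0.79 (SE 0.42). The calcium pump gene Atp2b1 measured 0.48 (SE 0.22) and -0.72 (SE 0.22). In the other direction Smad1, which transduces BMP signals, measured -0.15 (SE 0.18) at 48 h and 1.07 (SE 0.18) at 72 h, but its other probes gave 0.13 and -0.01 at 72 h. The F-box gene Fbxo31 measured -0.39 (SE 0.19) at 48 h and 0.68 (SE 0.19) at 72 h. Its brighter probe gave -0.32 and 0.22 (SE 0.285 each), with overlapping arms at both times. Rbm8a was lower at 48 h and at 0.37 (SE 0.21) at 72 h, each time without overlap. Vmn1r197 had the smallest p of this test, at 0.72 (SE 0.18) at 48 h and -0.59 (SE 0.18) at 72 h, without overlap at either time. The dim probes of Tas2r106 and Shd, a taste receptor and an adaptor protein gene, had differences of -0.36 and -0.37 at 48 h and of 0.55 and 0.68 at 72 h. None of these passed.

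**Figure D5:**
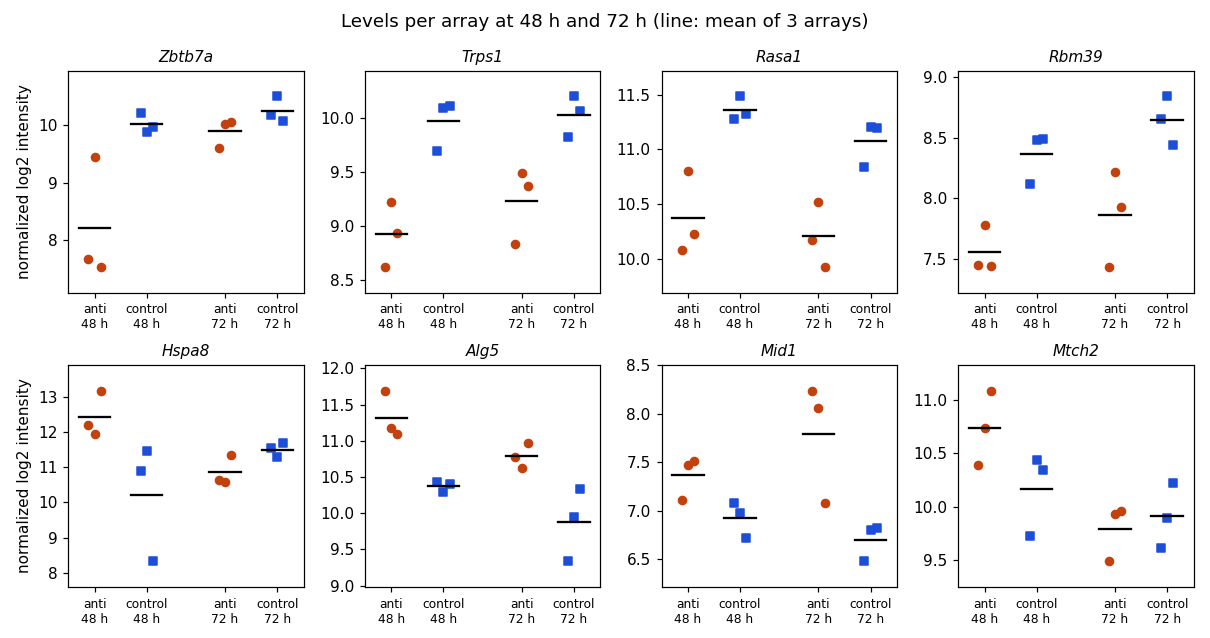
Normalized log2 intensity per array for 8 genes at 48 h and at 72 h, with anti-miR-135b in orange, control in blue and the mean of 3 arrays as a line. For Trps1, Rasa1 and Rbm39 all anti-miR-135b arrays lie below all control arrays at both times. Zbtb7a shows the wide gap at 48 h only, and for Mid1 the gap between the means is 0.44 at 48 h and 1.09 at 72 h.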

How the data were processed

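Bead-averaged intensity per probe was deposited for 16 arrays, made with GenomeStudio per the submitters' processing notes; no version or background subtraction is recorded there. All intensities were above 0 (lowest 143.3), with array medians from 281.2 to 346.8. An alternative used the log2 values that the authors deposited as a normalized table, their method being not given in the sources used here. Intensities were corrected by normexp (saddle, offset 50) and quantile normalized in limma 3.58.1 (R 4.3.3). Probes above the median of mean signal were kept and fitted with lmFit and eBayes, with a mean for each of 6 groups (10 residual and 7.8 prior degrees of freedom), two-sided, Benjamini-Hochberg over 12848 probes, threshold 0.05. Both arms at 48 h shared 1 of 2 chips, so no chip term entered. Gene symbols came from the platform annotation (1 symbol for 23978 probes), updated through gene IDs found in RefSeq for 23962.

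Named genes were the 15 smallest p-values per direction among probes without overlap, the 5 smallest per direction for 48 h minus 72 h, up to 4 members of a described list, and Mid1 and Mtch2. Clones without a gene name were tested but not named. Lists used the brightest kept probe of each gene and were not tested; 36 lists were counted, of which 18 are drawn and some others described, and 4 further lists hold cell type markers. The members and lists were chosen with earlier results of these data known. The fit was run on simulated data with noise independent between arrays. The deviations shared across arrays at 48 h were not simulated, so that run cannot show how the fit handles them. The number of arrays limits the precision.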

Additional observations from a re-analysis of the deposited data

How the results depend on the processing

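The labels give the arms no shared replicate number and so state no pairing. A label order block paired 4 with 13, 5 with 14 and 6 with 15 at 48 h. Deviations from the arm means correlated at 0.56 for 4 with 13, 0.08 for 5 with 14 and 0.5 for 6 with 15. These values are bound to each other, so they cannot decide for or against single pairs. The fit held the arrays of the other times too, so its calls do not rest on these pairs alone. Whether deviations were shared in such pairs at those times was not tested. This block called 13 probes, and 1386 at an unadjusted p under 0.05. Among the calls were 7 of the 30 genes named for 48 h, including Zbtb7a (limma adjusted p = 0.0079), Trps1 and Cbx3 (0.0356 each). Pfkp passed as well (1.51, limma adjusted p = 0.0304). With the other settings that kept all arrays, 0 probes passed at 48 h and 0 for 48 h minus 72 h. Leaving out 1 array gave 0 to 4 probes at 48 h, 423 to 1461 at an unadjusted p, and 0 to 0 for 48 h minus 72 h, including the 72 h arrays, a choice added after seeing the data. The 802 at an unadjusted p became 2619 with median scaling, 1406 with no filter on signal, 499 above the 70th percentile, 518 with only the 48 h arrays in the fit and 1279 with array weights. Median scaling moved 33 of 36 list medians by more than their spread between arrays, and moved the median of all probes to -0.27, so that 103 were higher and 2516 lower, beside 393 and 409 with quantile normalization. Under it alone differences of single named genes changed sign, in Mtch2 ILMN_2610204 (-0.28), Bag3 (-0.19), H2-K1 (-0.0666), Hspa4 (-0.0266), Map2k2 (-0.13), Mcm10 (-0.25), Mcm5 (-0.24), Mtch2 (-0.0017 for ILMN_1229238), Stip1 (-0.25), Top2a (-0.0682), Trim28 (-0.0247) and Xbp1 (-0.0599). The 30 genes kept their direction in every setting that tested them. They were chosen from probes whose arms did not overlap, so leaving out 1 array or refitting the same values could hardly reverse it. For those settings the kept direction mostly follows from the choice. By over 1.5 times, 12 moved with no background correction and 12 with median scaling (Alg5 to 0.37, Tbrg1 to 0.28, Pfn1 to 0.53). So did 11 in the authors' deposited value table, 6 with array weights and 2 without control sample 6 (Hspa8 and Srp54a). Of 36 list medians, 2 to 8 moved by more than their spread when 1 array was left out. Probes near background, with no detection call, set the limit for dim genes.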

Other observations

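Several lists followed the order of the samples in both arms more than the arm itself. NF-kB and cytokine genes had mean levels of 8.11, 8.83 and 9.37 in anti-miR-135b samples 13, 14 and 15 and of 8.08, 8.74 and 9.29 in control samples 4, 5 and 6, with a median difference of 0.10. Glycolysis and HIF1 target genes ran the other way, at 11.14, 10.73 and 10.30 under anti-miR-135b and 11.00, 10.81 and 10.17 in the control (median -0.03). In that list Pfkp, a phosphofructokinase, measured 13.18, 11.74 and 11.29 under anti-miR-135b and 11.93, 11.14 and 8.63 in the control (1.51, SE 0.68). Genes of fatty acid synthesis showed the same order, at 10.22, 9.999 and 9.75 under anti-miR-135b and 10.19, 10.04 and 9.74 in the control (median -0.06).

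Among other groups, Grhl2, a transcription factor of epithelial cells, measured 9.26, 10.01 and 9.37 under anti-miR-135b and 10.68, 10.19 and 10.12 in the control (-0.78, SE 0.27), the arms not overlapping, while 9 of 19 junction genes were higher. Sat1, which acetylates polyamines, measured 12.16, 12.04 and 12.05 under anti-miR-135b and 12.64, 12.43 and 12.76 in the control (-0.53, SE 0.26). Bcl2l1, an inhibitor of apoptosis, measured 8.43, 9.08 and 9.51 under anti-miR-135b and 8.37, 8.64 and 7.86 in the control (0.71, SE 0.30). These genes were picked after their values were seen, and none passed the test over all probes.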
